A study of Mus musculus with 8 samples.

Results

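Of 6929 autosomal genome regions that carried an H3K27ac peak in all 4 libraries of a fed and fasted mouse crypt experiment, 796 held a higher place in the score order of both fasted libraries than in that of both fed libraries. These 796 regions are described here as the fasted-higher regions. They were chosen by peak scores. Peaks of the 4 libraries were merged wherever they overlapped by 1 bp or more, which gave 43091 regions, and each library's highest peak score in a region was turned into a percentile rank among the 6929 shared regions. A region was kept where the lower of its 2 fasted ranks exceeded the higher of its 2 fed ranks by at least 10 points. This difference is called the gap.

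H3K27ac is an acetylation of histone H3 that marks active promoters and enhancers. Acetyl groups are placed by acetyltransferases such as p300 and CBP and removed by histone deacetylases, and broad stretches of the mark are known from strongly active, often cell-type-specific, regulatory domains. Intestinal crypts are pockets of the epithelium that hold stem cells, their dividing daughters and Paneth cells, and the ketone body beta-hydroxybutyrate, which rises in fasting, is known as an inhibitor of some histone deacetylases.

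The mice were males and females aged 6 to 12 weeks of 2 strains, Lgr5EGFP-IRES-CreERT2/+ (B6.129P2-Lgr5tm1(cre/ERT2)Cle/J), in which the reporter and an inducible Cre are driven from the Lgr5 locus of crypt stem cells, and C57BL/6J. Which strain went into which library is not given in the labels. Fed mice had free access to food, and fasted mice were kept for 24 h on water alone; all were housed singly. Whole crypts of the small intestine were pooled from 4 animals for each replicate and cross-linked, and chromatin was precipitated with the H3K27ac antibody Abcam ab4729. Trichostatin A (TSA), a histone deacetylase inhibitor, was present at 100 nM in the isolation solutions and medium of fed and fasted crypts alike, and that medium also held the TGF-beta receptor kinase inhibitor SB431542 and the ROCK inhibitor Y-27632. The 8 samples are 2 fed libraries (fed 1 and fed 4), 2 fasted libraries (fasted 2 and fasted 5) and their 4 inputs; the inputs on their own were not analysed here.

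The peak lists held 27640 (fed 1), 15504 (fed 4), 37974 (fasted 2) and 35917 (fasted 5) peaks. Depth is unknown for all of them, since no read counts were used here. The names of the deposited lists carry the number 10 for fed 1 and fasted 2 and 11 for fed 4 and fasted 5, and the labels do not say what it stands for; values are therefore also given for each such pair. Whole crypts mix cell types, and in such bulk chromatin a change in the number of cells of a type cannot be told apart from a change in the mark per cell. No gene table, sequence or annotation of the files' build, mm9, was used here, so regions are given by position alone, and the crypt label was not checked against marker genes. No test is given for a fed against fasted difference below, because the score ranks of these same libraries chose the regions; an exact permutation test of 2 against 2 libraries could in any case not go below 0.333.

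The 796 fasted-higher regions made up 11.5% of the shared regions, and the mirror rule, with both fed ranks at least 10 points above both fasted ranks, took 809 regions or 11.7%. The rule set these shares, and nothing is read from them. The numbers in the fasted and fed directions ran close together at every gap: 1430 and 1489 regions at any gap above 0, 422 and 410 at 20 points or more, 83 and 85 at 40 or more, and 14 and 12 at 60 or more. Because percentile ranks within a library have a fixed total, a rise of some regions in the order comes with a fall of others, so near balance is built into the ranks, and a higher rank is a place relative to the other shared regions and not an amount of acetylation. With percentiles of each whole list in place of these ranks, 1631 regions (23.5%) were higher in the fasted and 107 in the fed libraries by the same 10 points. On that scale the shared regions as a whole stood higher in the fasted lists. Their medians were 78.6 (fed 1), 66.1 (fed 4), 87.8 (fasted 2) and 86.3 (fasted 5), so nothing is read from these counts.

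**Figure D1:**
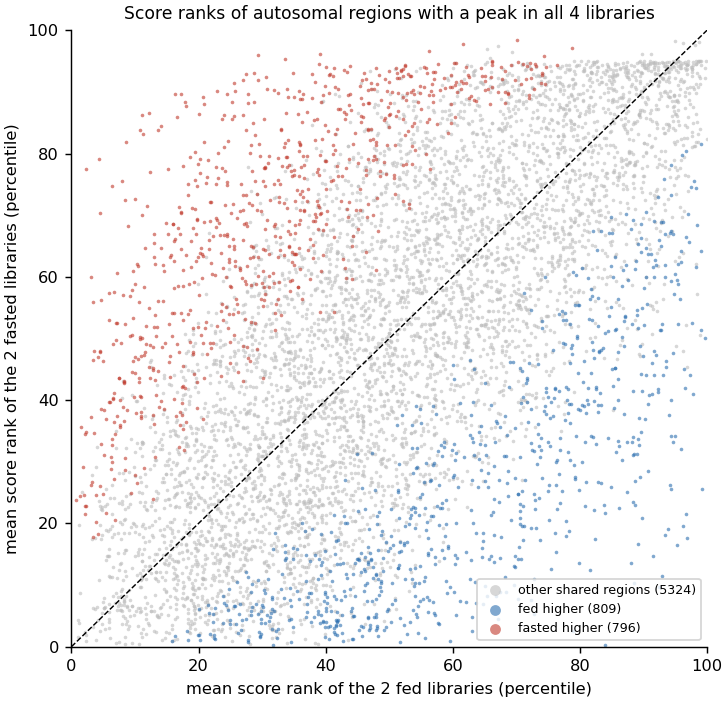
Each point is an autosomal region with a peak in all 4 libraries, placed by the mean score rank of the 2 fed libraries (horizontal, percentile) and of the 2 fasted libraries (vertical, percentile); the dashed line marks equal ranks. The 796 fasted-higher regions (red) lie above the line and the 809 fed-higher regions (blue) below it, as the rule requires, and single fasted ranks of the fasted-higher regions run from 15.0 in fasted 2 and 17.0 in fasted 5 upward.

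Among the fasted-higher regions the median score rank was 32.5 in fed 1 and 26.7 in fed 4, while fasted 2 had 71.4 and fasted 5 had 72.9. The gap had a median of 20.8 points and a highest value of 70.1. Within the pairs that share a file number, the median rank difference was 30.7 points between fasted 2 and fed 1 and 38.3 points between fasted 5 and fed 4. Ranks of the same region in the 2 fed libraries lay a median of 12.8 points apart, and in the 2 fasted libraries 7.88 points apart. The lower fasted rank came from fasted 2 in 409 regions and from fasted 5 in 385, and the higher fed rank from fed 1 in 467 and from fed 4 in 329.

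The regions entered the set from different parts of the order. In 318 regions both fasted ranks were above 50 and both fed ranks below 50. In 100 regions both fasted ranks stayed below 50, and in 74 regions both fed ranks were already above 50. Both fasted ranks were above 90 in 114 regions. The rule shapes these counts, and nothing is read from their size. In fasted 5 many peaks share a score of exactly 3100, and 237 of the fasted-higher regions (29.8%) sat at that tie, which stands at rank 90.2, against 1143 (16.5%) of all shared regions. With tied scores placed at the lower edge of the tie, an alternative chosen after seeing the data, 745 regions met the rule.

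Ranks among the shared regions leave out every region without a peak in all 4 libraries, also those with peaks in both states. Set against every peak of its own list, the median fasted-higher region stood at percentiles 64.6 (fed 1), 41.4 (fed 4), 93.9 (fasted 2) and 93.7 (fasted 5). The median of all shared regions was 78.6, 66.1, 87.8 and 86.3 in the same order. The fasted-higher regions thus stood around the middle of the fed lists and held places near the top of the fasted lists. The fed lists are shorter, so percentiles of different lists show places within each list and not a change.

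The region with the largest gap, 70.1 points, lies on chromosome 3 (59897354 to 59903547, 6194 bp). Its score was 55.2 in fed 1 and 51.1 in fed 4, near the lowest score listed, and 1047 in fasted 2 and 2565 in fasted 5, which gave ranks of 2.86, 1.76, 82.1 and 73.0. Fed peaks covered 1524 bp (fed 1) and 782 bp (fed 4) of it, and fasted peaks 5471 bp (fasted 2) and 6194 bp (fasted 5), the last being its whole length. Both fasted libraries stood far above both fed libraries in rank and in covered length, and the bases with a peak in all 4 libraries came to 414 bp.

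A region on chromosome 3 (8985483 to 8994892) had the next largest gap, 68.0 points, with ranks of 9.42 (fed 1), 15.1 (fed 4), 83.1 (fasted 2) and 90.2 (fasted 5). Its peaks covered 2372, 1210, 9316 and 8445 bp in the same order. Short fed peaks thus stood beside nearly continuous cover of its 9410 bp in both fasted libraries. In the region on chromosome 4 (153999756 to 154013718) the ranks were 19.4, 16.3, 86.4 and 90.2 and the covered lengths 3348, 898, 11741 and 13166 bp. On chromosome 6 (83386424 to 83402258) the ranks were 23.8, 21.9, 90.3 and 90.2, and the covered lengths 4596, 1230, 15835 and 15314 bp. This last region is the longest of the 10 with the largest gaps, and no base of it had a peak in all 4 libraries: the fed 1 and fed 4 peaks lay at different places within the stretch that the fasted peaks filled.

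A region on chromosome 17 (45708331 to 45713113) differed from the others in its extent. Its ranks were 23.4, 9.22, 89.1 and 90.2, but its fed 1 peaks covered 4208 bp, close to the 4331 bp of fasted 2 and the 4582 bp of fasted 5; fed 4 covered 1984 bp. Here the order of scores separated the states by 65.7 points while the summed length of the fed 1 peaks was close to that in the fasted libraries.

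The other 5 of the 10 largest gaps ran from 62.0 to 63.4 points. A pair of them lie on chromosome 7 (87543711 to 87549478 and 91832945 to 91839715). The others lie on chromosome 1 (52285194 to 52291934), on chromosome 8 (63700775 to 63709243) and on chromosome 11 (12303057 to 12313759). Peaks covered 1457, 651, 5235 and 5433 bp of the chromosome 1 region in fed 1, fed 4, fasted 2 and fasted 5. The chromosome 11 region was covered over 2762, 1395, 7572 and 10703 bp. In each of the 10 regions both fasted libraries covered more bases than both fed libraries. Of these 10, 7 had the tied score of 3100 in fasted 5, so their order among the highest fasted 5 peaks is not resolved.

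At the edge of the rule, the 3 regions just inside had gaps of 10.0, 10.02 and 10.03 points and the 3 just outside 9.987, 9.987 and 9.944 points. The region just inside and nearest the edge, on chromosome 5 (102255197 to 102261908), had ranks of 71.4 (fed 1), 29.5 (fed 4), 81.4 (fasted 2) and 98.7 (fasted 5). The nearest one left out, on chromosome 6 (83153949 to 83162255), had ranks of 64.6, 15.2, 83.2 and 74.6. The edge divides regions with much the same gap, while their ranks in single libraries can differ, as in fed 4 and fasted 5 here.

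In 61 fasted-higher regions both fed ranks were under 10, a number that the rule shapes and from which nothing is read. These are regions whose fed peaks were among the lowest-scoring of the shared ones: their median ranks were 4.65 (fed 1), 4.71 (fed 4), 32.8 (fasted 2) and 40.3 (fasted 5). They were short, with a median width of 4808 bp and a range of 2461 to 11261 bp. The 10 of them with a gap of 40 points or more, a limit chosen after their values were seen, include 3 of the largest gaps given above.

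Of the other 7, a pair lie on chromosome 11 (86355320 to 86360190 and 87509617 to 87516870). The rest lie on chromosome 1 (108478643 to 108489903), on chromosome 2 (56966277 to 56970907), on chromosome 12 (81534127 to 81538982), on chromosome 14 (41836207 to 41845057) and on chromosome 16 (4211571 to 4215953). The chromosome 12 region had ranks of 0.166 (fed 1), 8.57 (fed 4), 59.5 (fasted 2) and 98.8 (fasted 5). Its 2 fasted ranks differed by far more than the 2 fed ranks, and both were above the middle of the order. The chromosome 16 region had ranks of 3.59, 8.28, 57.3 and 57.3, so its 2 fasted libraries placed it alike.

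At the other end stood regions near the top of the fasted order, some of them also high in a fed library. The region on chromosome 3 (88308781 to 88321545) had the highest value of the lower fasted rank. Its ranks were 87.1 (fed 1), 53.2 (fed 4), 97.2 (fasted 2) and 99.7 (fasted 5), and its gap was 10.1 points. Peaks covered 11711, 5453, 12070 and 12366 bp of its 12765 bp, so fed 1 nearly matched the fasted libraries in length. A region on chromosome 11 (101218398 to 101232862) combined ranks of 95.7 in fasted 2 and 99.8 in fasted 5 with 65.2 in fed 1 and 57.9 in fed 4, a gap of 30.5 points. The other 3 with the highest lower fasted rank lie on chromosome 11 (75463971 to 75473104 and 117791008 to 117800302) and on chromosome 5 (29520796 to 29531058), with gaps of 10.3, 10.3 and 15.7 points.

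The score used by the rule and the extent of the peaks are linked. Across the 6929 shared regions, the Spearman rho between the score and the length of the widest peak was 0.844 (fed 1), 0.766 (fed 4), 0.722 (fasted 2) and 0.614 (fasted 5). These are correlations across regions of a single library and are given as a description. The lengths below come from the same peaks as the scores that chose the regions, so they describe the fasted-higher regions and support nothing about them.

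In the fasted-higher regions peaks covered a median of 2967 bp (fed 1), 1356 bp (fed 4), 6208 bp (fasted 2) and 6512 bp (fasted 5). The mean of these medians was 2162 ± 1139 bp (SD, n = 2) in the fed and 6360 ± 215 bp (SD, n = 2) in the fasted libraries, a difference of 4198 bp and a ratio of 2.94. With fed 4 left out the rule took 3210 of 13322 shared regions (24.1%), and the difference over those 3210 was 2750 bp. Over all 6929 regions shared by the 4 libraries the ratio was 2.29, and in the fed-higher regions it was 1.76. These differences between sets follow the rule in direction and were not tested. Fasted peaks thus covered more in each of these 3 sets, and the ratio was highest in the fasted-higher one. The merged fasted-higher regions had a median width of 6877 bp, of which peaks filled a median of 46.4% (fed 1), 22.5% (fed 4), 91.9% (fasted 2) and 97.0% (fasted 5).

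Both fasted libraries covered more bases than both fed libraries in 788 of the 796 fasted-higher regions (99.0%), beside 91.3% of all shared regions. The widest peak was longer in both fasted than in both fed libraries in 793 of them (99.6%), beside 92.3% of all shared regions. Longer fasted peaks were therefore the rule throughout the shared regions, and nothing is read from these counts about the chosen ones. The 3 fasted-higher regions in which the widest peaks did not separate the states, named here after their values were seen, are those on chromosome 3 (88308781 to 88321545, described above), on chromosome 9 (64583104 to 64586324) and on chromosome 12 (7982125 to 7986622). In the chromosome 9 region the fed 1 peak of 2814 bp was longer than that of fasted 2 (2427 bp) and shorter than that of fasted 5 (2864 bp).

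**Figure D2:**
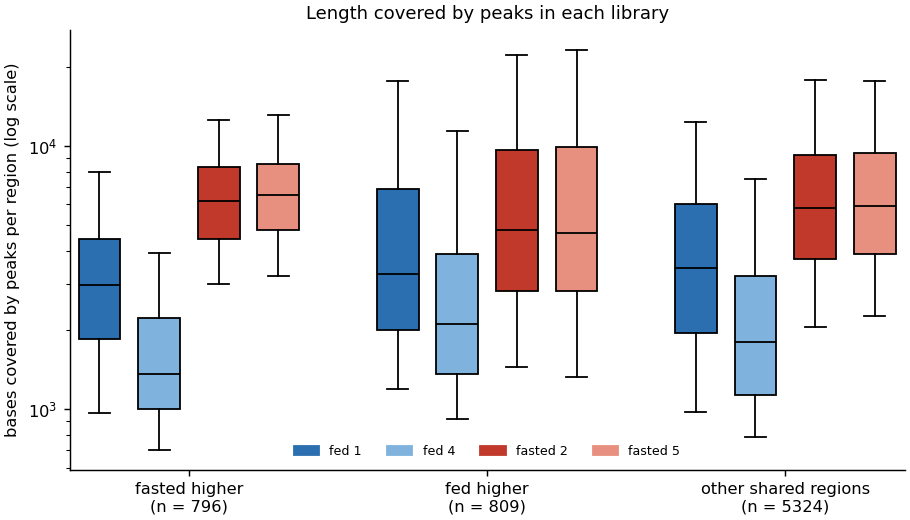
Bases covered by peaks per region (log scale), by library, in the fasted-higher, fed-higher and other shared regions. Boxes span the quartiles with a line at the median, and whiskers run from the 5th to the 95th percentile of the regions. In the fasted-higher regions the medians are 2967 and 1356 bp in the fed and 6208 and 6512 bp in the fasted libraries. The fed-higher regions have 3274 and 2105 bp in the fed and 4782 and 4665 bp in the fasted libraries.

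Ranking the covered length within each library, as was done for the scores, sets aside the longer peaks of the fasted lists as a whole. On that scale the fasted-higher regions had median ranks of 44.1 (fed 1), 36.0 (fed 4), 54.0 (fasted 2) and 55.8 (fasted 5). The difference between the means of the fasted and fed libraries was 14.9 points for the covered length, against 42.6 points for the score. Both fasted ranks of covered length were above both fed ranks in 349 of the fasted-higher regions (43.8%), beside 21.8% of all shared regions, and both fed ranks were above both fasted ranks in 85 (10.7%), beside 29.6%.

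Many of these regions held several peaks of a library, most often in fed 1. Fed 1 had at least 2 separate peaks in 456 of the fasted-higher regions (57.3%), fed 4 in 257 (32.3%), fasted 2 in 275 (34.5%) and fasted 5 in 168 (21.1%). The shares over all shared regions were 55.6%, 39.2%, 42.5% and 26.3%. The fasted-higher share was below that of all shared regions in 3 libraries and above it in fed 1; these differences were not tested.

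The position of the highest-scoring peaks showed how the fed and fasted peaks lay on each other. In 80.2% of the fasted-higher regions the top peak of fed 1 lay wholly inside the top peak of fasted 2, beside 66.6% of all shared regions. For fed 4 inside fasted 5 the shares were 89.9% and 82.1%. The top peaks of the 2 fasted libraries overlapped in 794 of the 796 regions (99.7%), beside 98.4% of all shared regions, a share near the background. Those of the 2 fed libraries overlapped in 473 (59.4%), beside 68.1% of all shared regions and 73.4% of the fed-higher regions. In the remaining regions the top fed peaks lay at separate positions. Fed peaks were also shorter here, and the part of peak length in this share was not tested.

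Measured in bases, a median of 2178 bp of a fasted-higher region lay under peaks of both fasted libraries and of no fed one, which was 38.7% of the bases that both fasted libraries covered. The medians over all shared regions were 1457 bp and 27.2%. Summed over the 796 regions this sequence came to 2.07 Mb. Bases with a peak in all 4 libraries made up a median of 1009 bp, and in 139 fasted-higher regions (17.5%) there was no such base, against 11.3% of all shared regions. These regions count as shared only because peaks of different libraries were merged through one another.

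The reverse, bases under peaks of both fed libraries and of no fasted one, occurred in 5 of the fasted-higher regions (0.628%) and in 246 of all shared regions (3.55%). The 5 were named after their values were seen. A pair lie on chromosome 11, with 660 bp of such sequence in the region from 62366487 to 62375704 and 607 bp in that from 8533091 to 8544012. Another pair lie on chromosome 1, with 440 bp in the region from 193959115 to 193964495 and 91 bp in that from 167116939 to 167126334. The last, on chromosome 14 (76241535 to 76246592), had 123 bp. Even in these the fasted libraries covered more bases than the fed ones, as in the first with 2840, 1263, 6903 and 8005 bp in fed 1, fed 4, fasted 2 and fasted 5.

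The fasted-higher regions were of middle width. Their median was 6877 bp with quartiles of 5074 and 9079 bp and a range of 2461 to 29624 bp, and the median of all shared regions was 6537 bp with quartiles of 4333 and 9951 bp. When the shared regions were split into 10 classes by width, the fasted-higher share was 2.74% in the narrowest class (1068 to 3116 bp), 18.2% in the seventh (7697 to 9022 bp) and 4.19% in the widest (15002 to 55583 bp). The fed-higher share ran the other way, with 22.5% in the narrowest and 20.4% in the widest class and 7.37% in the seventh. The rule was also applied with the ranks of each library left out in turn, over the same shared regions and width classes. The fasted-higher share then kept a low value at both ends and its highest value in the fifth, sixth or seventh class. The library left out still helped to set the regions and their widths, so these shares are a description and support nothing.

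**Figure D3:**
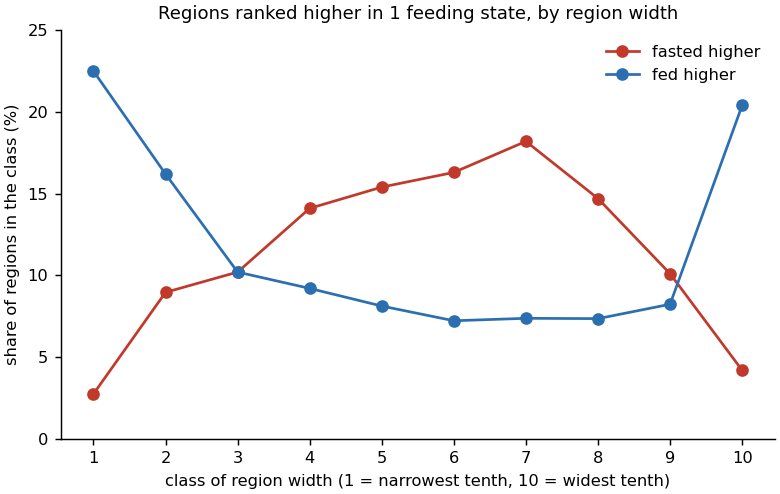
Share of regions (vertical, percent) that were fasted-higher (red) or fed-higher (blue) in each of 10 classes of region width (horizontal, from the narrowest to the widest of the 6929 shared regions). The fasted-higher share is 2.74% and 4.19% in the end classes and highest, 18.2%, in the seventh.

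The median ranks of all shared regions show the same bend. In the narrowest class they were 19.8 (fed 1), 28.0 (fed 4), 11.6 (fasted 2) and 13.0 (fasted 5). In the seventh class they were 57.3, 53.3, 65.7 and 61.0, and in the widest class 86.3, 83.8, 75.0 and 73.0. Both fasted medians were below both fed medians at the ends and above them in the seventh class. Fasted peaks filled most of the region width, with medians over all shared regions of 92.4% in fasted 2 and 95.5% in fasted 5, and the part of width in the choice of the regions was not tested.

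The widest fasted-higher region, on chromosome 13 (37963807 to 37993430), spans 29624 bp. Fed peaks covered 8342 bp (fed 1) and 5162 bp (fed 4) of it and fasted peaks 24857 bp (fasted 2) and 29002 bp (fasted 5), and its ranks were 65.0, 48.8, 96.3 and 90.2. The next widest, on chromosome 15 (75642941 to 75668074), spans 25134 bp with 5265, 2584, 23964 and 21998 bp covered and a gap of 45.2 points. In both, fasted peaks filled most of a stretch of which the fed peaks held small parts. The other 3 of the 5 widest spanned 21337 to 23646 bp and had gaps of 13.4 to 26.5 points.

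In the genome the fasted-higher regions stood farther from other shared regions than the shared regions did on the whole. The median distance to the nearest other shared region was 26445 bp, against 12319 bp over all shared regions and 5413 bp for the fed-higher regions. Within 10000 bp of another shared region lay 267 of them (33.5%), beside 45.9% of all shared and 59.2% of the fed-higher regions. The distance to the nearest region whose peaks came from both fasted but no fed libraries differed less, with medians of 21500 bp and 23811 bp over all shared regions. These differences were not tested.

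**Figure D4:**
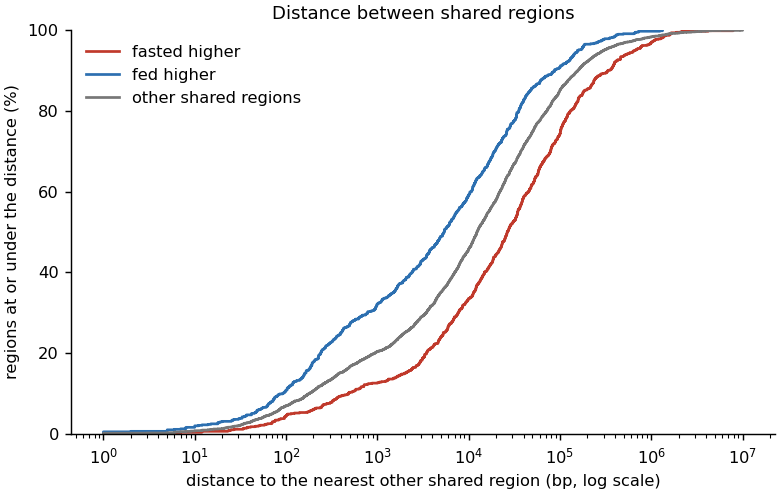
Cumulative share of regions (vertical, percent) by distance in bp to the nearest other shared region (horizontal, log scale) for the fasted-higher, fed-higher and other shared regions. The fasted-higher curve lies to the right, with a median of 26445 bp against 5413 bp for the fed-higher and 12324 bp for the other shared regions.

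The nearest shared region was itself fasted-higher for 107 of the 796 (13.4%), beside 10.2% over all shared regions, and fed-higher for 85 (10.7%), beside 12.5%; these differences were not tested. Of the 267 with a shared neighbour within 10000 bp, the neighbour was fasted-higher for 28 (10.5%), beside 8.24% over all shared regions. It was fed-higher for 33 (12.4%), beside 15.2%. These differences were not tested either. Consecutive fasted-higher regions, with no other shared region between them, formed 83 runs of 2, 12 runs of 3 and 1 run of 4, which hold 206 of the 796 regions. No background for such runs is given, and nothing about clustering is read from them. The run of 4, singled out after it was seen, lies on chromosome 10 from 50310896 to 53797249 and so spans 3486354 bp with gaps of 13.6, 43.8, 33.8 and 16.5 points. The tightest run of 3, also singled out after it was seen, lies on chromosome 17 from 46779854 to 46844202.

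All 19 autosomes held fasted-higher regions. Chromosome 11 held the most, 73 of its 682 shared regions (10.7%). The share was highest on chromosome 15, with 48 of 284 regions (16.9%, exact 95% binomial interval 12.7 to 21.8%), and lowest on chromosome 16, with 15 of 227 (6.61%, 3.75 to 10.7%). The intervals treat regions as independent and cover counting error only. Both ends were picked from the whole range of chromosomes, and the difference between them was not tested.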

How the data were processed

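H3K27ac ChIP-seq peak lists of 2 fed and 2 fasted crypt pools were used. The submitters' processing notes name build mm9 and the tools Bowtie 1.1.2, FastQC, deepTools 1.5.11 and SAMtools 1.9. Peak and file names point to MACS without a shifting model, called per library, with a version not given in the sources used here. Each deposited list gives a score per peak, set by the authors on a scale that nothing states, so it was used only to rank peaks within a list. Positions count from 1. Merging, ranks and lengths were computed in Python 3.11.15 with pandas 2.3.3 and numpy 2.4.6, with exact intervals from scipy 1.17.1. The choice of regions by rank was tested on simulated data. The number of merged regions in the real lists was checked against bedtools 2.31.1, and the lengths were not tested in this way. Regions listed by rule are the 10 largest gaps, the 5 widest and the 5 with the highest lower fasted rank. Also listed are 3 on each side of the 10-point edge and those with both fed ranks under 10. Positions are given for only part of the widest and edge regions. Among those with both fed ranks under 10, they are given where the gap was 40 points or more. The members and lists were chosen with earlier results of these data known. Gene lists, cell type markers and sequence content were not analysed here, because the gene and promoter tables at hand are of another build than the files and no position was converted. Alternatives changed the gap, the score, the merging, the lists and the libraries.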

Additional observations from a re-analysis of the deposited data

How the results depend on the processing

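Of 56 alternative values for 4 results, 23 moved beyond a set limit. The limit was 1.5 times for the number of regions and the SD between libraries (819.8 bp) for the covered length difference. For the median width (6682 to 7140 bp) and the share (98.9 to 99.9%) it was the 95% interval over regions. These intervals treat regions as independent and hold no spread between libraries. The covered length difference stayed positive in all of its alternatives. In the main run it was also positive over all shared regions (3292 bp) and in the fed-higher regions (2034 bp). Its sign therefore says nothing particular about the fasted-higher regions. The number of fasted-higher regions was 422 with a gap of 20 points. It was 1631 when percentiles of the whole list replaced ranks among shared regions (the mirror count was then 107). On that scale the medians of all shared regions were higher in the fasted lists. With peaks scoring 100 or more, 2409 regions were shared and 259 of them (10.8%) were fasted-higher. Of the 796, 70 were found again. Their fed 4 score had a median of 68.0 and an upper quartile of 82.3 in the main run, so most of the 796 lost their fed 4 peak at that minimum. Leaving out a library relaxes the rule and also enlarges the pool of shared regions, and it gave 1365 to 3210 fasted-higher regions. The counts were 2239 of 8245 shared regions (27.2%) without fed 1 and 3210 of 13322 (24.1%) without fed 4. They were 1437 of 7206 (19.9%) without fasted 2 and 1365 of 7395 (18.5%) without fasted 5. The mirror counts were 2218, 3149, 1454 and 1451 in the same order. The covered length difference was 3260 bp with whole-list percentiles, 5486 bp with the score minimum, 2750 to 4739 bp with a library left out (lowest without fed 4), and 5660 bp when the rank of covered length chose the regions. That last choice and the tie at its lower edge were added after seeing the data. The covered length rank took 594 regions, 186 of them among the 796. The median width was 5556 bp with whole-list percentiles, 8137 bp when peaks up to 500 bp apart were merged, 8989 bp with the score minimum, 7308 bp with the 15504 top-scoring peaks of each list, 8057 bp by covered length rank, and 5104 to 6556 bp with a library left out. The share with both widest fasted peaks longer than both fed ones was 100.0% with a gap of 20 points and by covered length rank, and 99.63 to 99.96% with a library left out. The cause of these shifts was not tested beyond the looser or stricter rule. No paired analysis was possible because no test was made and fed and fasted libraries share no replicate number in the labels; differences between libraries that share a file number are given as values only. Depth is unknown, so what it limits cannot be given.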
